A study of Mus musculus with 135 samples.

Results

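The 37 genes of the mouse mitochondrial genome were followed in whole-tissue RNA from cerebral cortex and from hippocampus. They were taken as every gene of both count tables whose symbol begins with mt-, which gave 37 of 55416 genes, namely 13 protein-coding genes, 2 ribosomal RNA genes and 22 transfer RNA genes. The study asked whether repeated social defeat (RSD) changes the transcriptome of sickle cell mice and whether minocycline modifies that change. The animals were 6-month-old male Townes mice, which carry human in place of mouse globin genes, either the normal human beta globin (AA, the humanized controls) or the sickle form (SS). RSD mice shared their cage with an aggressor for 2 h a day on 6 consecutive days, and minocycline, a tetracycline antibiotic, was given in the drinking water from the day before.

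In the cortex the groups comprised 12 AA, 3 AA + RSD, 18 AA + RSD + minocycline, 1 AA + minocycline, 8 SS, 6 SS + RSD, 14 SS + RSD + minocycline and 4 SS + minocycline mice. The hippocampus had 11 AA and 7 SS mice and the same numbers in the other groups, so that 66 cortex and 64 hippocampus libraries were used. The single AA + minocycline mouse entered no comparison. Mouse numbers in the labels fall into separate ranges, called here number series A (5349 to 5400 and 9615 to 9674), B (5785 to 5900 and 9810 to 9910) and C (5645 to 5648, 7037 to 7121 and 10633 to 10639), and no label says what the ranges stand for. All 9 RSD mice without minocycline belong to series A and all RSD mice with minocycline to series B or C, so series and minocycline cannot be told apart among RSD mice. Reads on genes numbered 16295042 to 107713193 per cortex library and 12869149 to 68731008 per hippocampus library, of which 741165 to 5776550 and 578686 to 4474439 lay on mitochondrial genes. The library labelled cortex of the AA + RSD mouse 9674 had the marker levels of hippocampus (5 hippocampal markers summing to 241 CPM, 5 cortex markers to 83.9) and its library labelled hippocampus those of cortex (26.5 and 241 CPM), so these libraries go against their tissue labels throughout. They were kept under their labels, AA + RSD values are also given without them, and with them left out no comparison that uses AA + RSD mice gained or lost a mitochondrial call. In 5 other cortex libraries (mice 5646, 5801, 9621, 9813 and 9890) the cortex markers summed to 96.5 to 125 CPM, against 182 CPM or more in the rest, with hippocampal markers at 19 to 26.6 CPM as in other cortex libraries. In the hippocampus library of mouse 9810 the cortex markers reached 203 CPM. The globin or erythroid genes of mice 5844, 5853 and 7078 went against their labels. In the cortex the erythroid markers summed to 109 CPM in AA mouse 5844, 57.9 in AA mouse 5853 and 7.09 in SS mouse 7078. The AA mouse 9631 was also held in doubt. Its erythroid markers, at 2.82 CPM in the cortex and 1.84 in the hippocampus, were as low as in other AA mice, and its globin values are not given here.

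Mitochondrial DNA is a small circle transcribed from both strands into long precursors, which are cut at the tRNAs that lie between the mRNAs and rRNAs. Its mRNAs encode core subunits of respiratory complexes I, III, IV and V, while all other subunits, and the proteins that copy, transcribe and process the circle, are encoded in the nucleus. Brain tissue relies heavily on this pathway, and mitochondrial mRNAs, which carry short poly(A) tails, are abundant in libraries of polyadenylated RNA. On the chromosome M sequence of GRCm39, 28 of the 37 genes lie on the plus strand and 9, among them mt-Nd6, on the minus strand.

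Parts of the mitochondrial genome are also present in the nucleus, and 1 such copy bears on the counts of 6 of the 13 mRNA genes. The stretch chrM:6390-11042 aligned to chr1:24650616-24655269 (GRCm39, minus strand) over 4654 bases with 99.94% identity. mt-Co2 and mt-Co3 (subunits of cytochrome c oxidase, complex IV), mt-Atp8 and mt-Atp6 (subunits of ATP synthase, complex V) and mt-Nd3 and mt-Nd4l (subunits of NADH dehydrogenase, complex I) lie wholly inside it. The copies differ by the substitutions A6393T in mt-Co1 and T9461C in mt-Nd3 (mitochondrial base, position on chromosome M counted from 1 on the plus strand, base of the copy) and by 1 gap at position 9828 in mt-Tr. The first 85 bases of mt-Co2, the length of a read, are shown with their start codon in capitals, because they are the same in both genomes, and the stretch around position 9461 is shown with the differing base in capitals, because it is the only substitution inside the 6 genes.
mt-Co2, chrM:7013-7097, plus strand: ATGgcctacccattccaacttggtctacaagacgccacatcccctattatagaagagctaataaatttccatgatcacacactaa
copy of that stretch, chr1:24654562-24654646, minus strand: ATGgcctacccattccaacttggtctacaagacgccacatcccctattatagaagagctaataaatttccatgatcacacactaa
mt-Nd3 start, chrM:9431-9491, plus strand: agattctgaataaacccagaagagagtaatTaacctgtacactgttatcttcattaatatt
copy of that stretch, chr1:24652168-24652228, minus strand: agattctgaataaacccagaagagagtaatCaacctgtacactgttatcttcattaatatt

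Of all 85-base windows inside the genes, 100% of those of mt-Co2, mt-Atp8, mt-Atp6, mt-Co3 and mt-Nd4l and 98.9% of those of mt-Nd3 occurred without a mismatch in the nuclear genome. The share was 61.2% in mt-Nd4 and 35.3% in mt-Co1, which reach into the stretch, 4.7% in mt-Nd2, 2.2% in mt-Rnr2, 0.6% in mt-Nd5 and 0 in mt-Nd1, mt-Nd6, mt-Cytb and mt-Rnr1. Reads with several equally good places were left out of the gene counts. mt-Co2, mt-Atp8, mt-Atp6, mt-Co3 and mt-Nd4l had 0 windows without a nuclear copy, and mt-Nd3 had 3. A read inside them that matches in all 85 bases thus had no single place, those 3 windows apart. Counts still reached 23635 on mt-Co2 in 1 cortex library. What the counted reads are was not tested, and the levels of the 6 genes are not comparable with those of the other genes.

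The libraries were made from polyadenylated RNA, so the levels below are those in the captured RNA. Differences in poly(A) tails between mRNAs and rRNAs, or among mRNAs, cannot be told apart from differences in amount. Among the 9 mRNAs and rRNAs outside the 6 copied genes, whose levels cannot be ranked with the rest, mt-Co1, the catalytic subunit of complex IV, had the highest level. Per kilobase of gene length it reached 12353 ± 3469 CPM (read counts scaled to the reads on all genes; mean ± SD) in 66 cortex and 11732 ± 2634 in 64 hippocampus libraries. mt-Cytb, the core subunit of complex III, followed with 7082 ± 2064 and 7167 ± 1835, and was below mt-Co1 in all 66 and all 64 libraries. The complex I subunit mt-Nd1 had 6304 ± 1680 and 6344 ± 1788 CPM per kb and was below mt-Cytb in 51 of 66 and 56 of 64 libraries. mt-Nd2 had 3636 ± 898 and 3829 ± 1065, below mt-Nd1 in every library. The small-subunit ribosomal RNA mt-Rnr1 (3371 ± 1173 and 3179 ± 1124) lay within the spread of mt-Nd2. The large-subunit ribosomal RNA mt-Rnr2 (2504 ± 848 and 2707 ± 977) and mt-Nd5 (2243 ± 583 and 2251 ± 484) lay within each other's spread. mt-Nd4 had 2490 ± 629 and 2741 ± 728 CPM per kb, a value that gene length understates, since 61.2% of its windows were not placeable. Scaled to 1000 windows without a nuclear copy, a scale chosen after the values were seen, mt-Nd4 reached 6836 ± 1727 CPM in cortex and 7523 ± 1999 in hippocampus libraries, above mt-Nd5 (2366 ± 615 and 2375 ± 511) and mt-Rnr2 (2704 ± 916 and 2923 ± 1055) in all 66 and all 64 libraries and within the spread of mt-Nd1 (6910 ± 1841 and 6955 ± 1960) and mt-Cytb (7644 ± 2228 and 7735 ± 1981). On that scale mt-Co1 had 20196 ± 5672 and 19181 ± 4306 and remained above mt-Cytb in every library. mt-Nd6, the one mRNA of the minus strand, was far lower, with 105 ± 46.2 CPM per kb in the cortex and 126 ± 96.9 in the hippocampus, and since the strand setting of the counting is not given, its reads cannot be told apart from antisense RNA of the plus strand. The 6 genes of the copied stretch had medians of 3.39 (mt-Atp8) to 40.4 (mt-Co2) CPM per kb in the cortex and of 3.63 to 40.4 in the hippocampus. Per mitochondrial read, mt-Co1 took 36.6 ± 2.23% in the cortex and 35 ± 2.19% in the hippocampus.

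**Figure D1:**
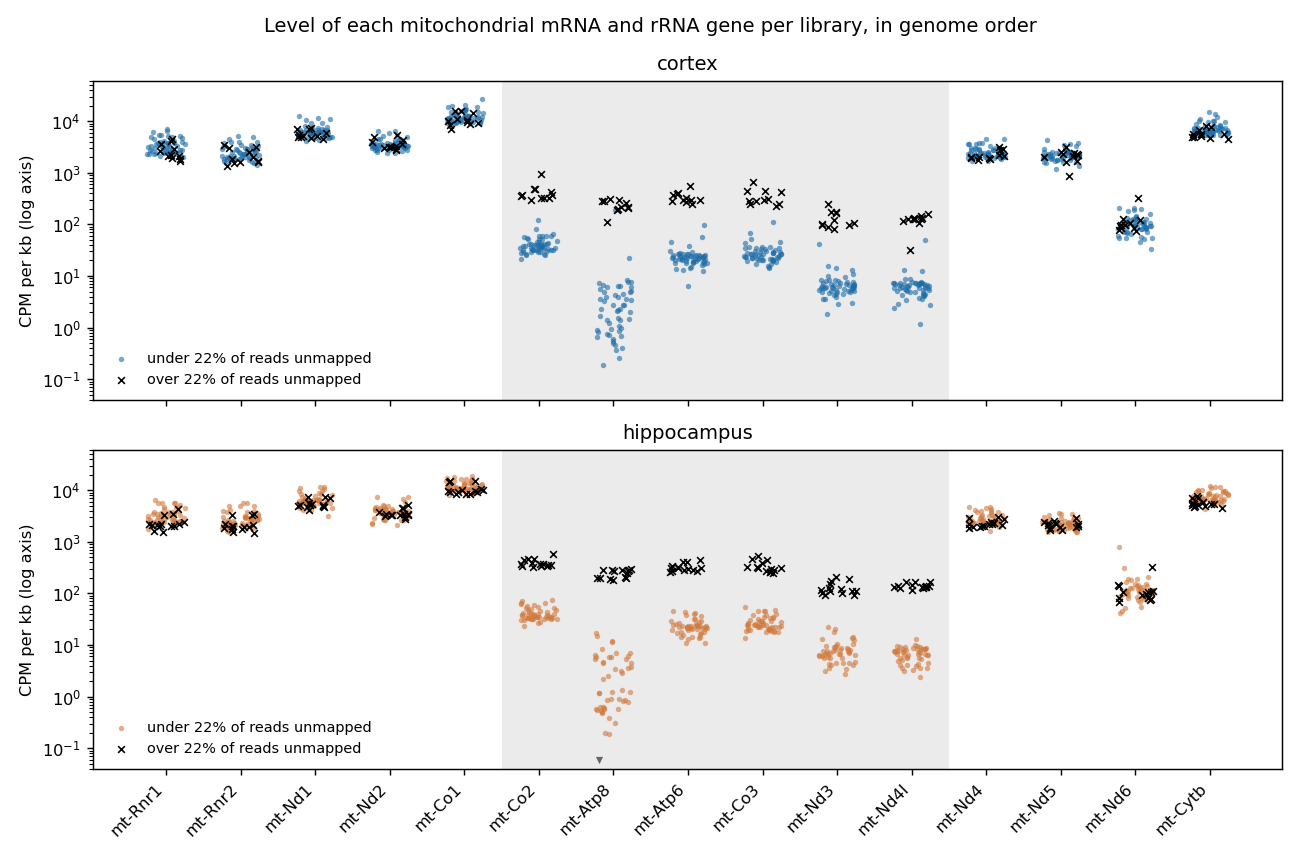
Level of each mitochondrial mRNA and rRNA gene in CPM per kb (log axis), in genome order, with 1 point per library for the cortex (above) and hippocampus (below). The shaded genes lie inside the copied stretch, and crosses mark libraries with over 22% unmapped reads, which stand above nearly all other libraries in the shaded genes and among them in the rest; the triangle marks libraries with no mt-Atp8 count.

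Transfer RNAs took 0.0318% of mitochondrial reads in the cortex and 0.0399% in the hippocampus. No tRNA gene (59 to 75 bases) is as long as an 85-base read, so every counted read reached past its ends. In both tissues mt-Tg, mt-Th, mt-Tk, mt-Tn, mt-Tr and mt-Ts2 had a count of 0 in every library, and 3 more tRNAs were at 0 in every cortex library. After the filter on low counts, 22 to 27 of the 37 genes could be tested, depending on the comparison, which always included the 13 mRNAs and both rRNAs.

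The level of the 6 copied genes divided the libraries. In 25 libraries over 22% of all reads were unmapped (24.1 to 41.9%), and in 105 libraries under 22% (3.07 to 20%), a limit set after the values were seen. The summed level of the 6 genes was 646 to 1689 CPM in the 25 libraries (median 818) and 31.3 to 303 CPM in the 105 (median 65.2), so that the ranges did not overlap. mt-Co2 alone ranged from 199 to 657 CPM in the 25 libraries and from 14.4 to 82.0 CPM in the others. The highest of the 105 was the cortex library of the SS + minocycline mouse 7108, with 10.8% unmapped reads and a sum of 303 CPM; the next was at 158. The other 7 mRNAs showed no such division, with sums of 29137 to 55809 CPM against 27908 to 89854, but their median was lower in the 25 libraries (36220 against 42957). The mitochondrial share of reads on genes also had a lower median there (4.28 against 4.98%), which bears on its comparison between groups and series. The 7 annotated nuclear pseudogenes of the stretch on chromosome 1 summed to 778 to 1833 CPM in the 25 libraries and to 82.3 to 428 CPM in the others. Reads with several places made up 2.44 to 4.88% of all reads in the 25 libraries and 3.51 to 9.51% in the others. What separates the 25 libraries from the rest was not tested.

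Most mice fell on the same side in both tissues. Among 64 mice with both tissues, 11 were over 22% in both, 50 under in both, and mice 7108, 9822 and 9848 over in the hippocampus only. Libraries over 22% were 0 of 8 in cortex SS, 2 of 6 in cortex SS + RSD, 1 of 14 in cortex SS + RSD + minocycline and 1 of 4 in cortex SS + minocycline. In the hippocampus they were 2 of 7 SS, 2 of 6 SS + RSD, 1 of 14 SS + RSD + minocycline and 2 of 4 SS + minocycline libraries. In AA mice of either tissue they comprised 2 of the controls, 1 of 3 AA + RSD, 3 of 18 AA + RSD + minocycline and the 1 AA + minocycline library. By number series, 3 of 15 cortex libraries were over 22% in series A, 2 of 40 in B and 6 of 11 in C, and in the hippocampus 3 of 14, 4 of 39 and 7 of 11.

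**Figure D2:**
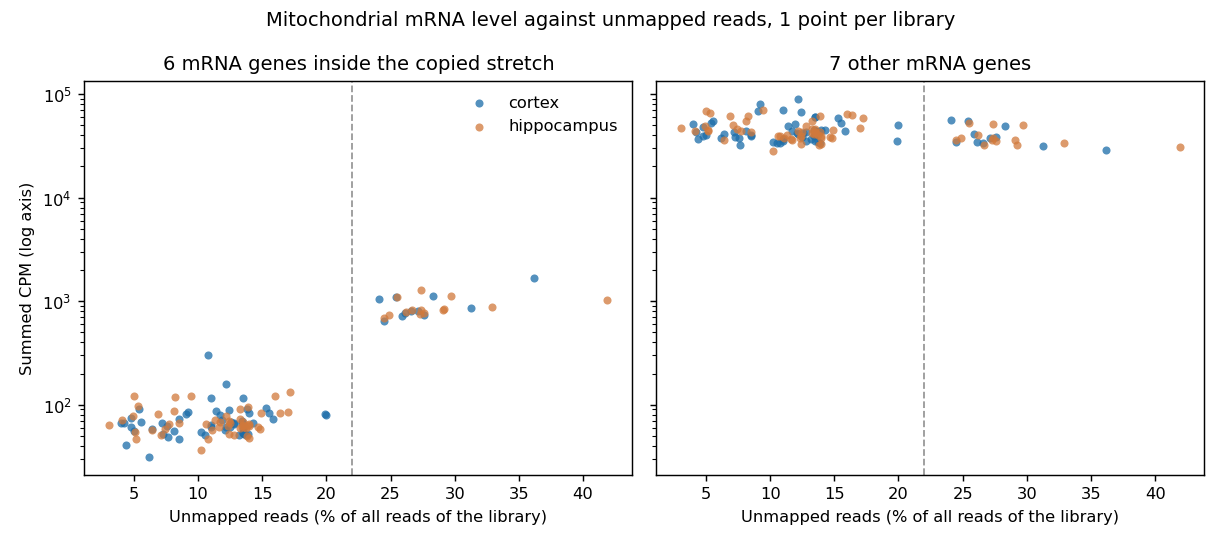
Summed CPM (log axis) of the 6 mRNA genes inside the copied stretch (left) and of the 7 other mRNA genes (right) against the unmapped share of all reads, 1 point per library. Right of the dashed line at 22% all 25 libraries lie at 646 CPM or more on the left panel, while the right panel shows no step.

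The mitochondrial share of reads on genes was close to the same in both tissues, and mice of 1 group varied widely. It averaged 5.20 ± 1.36% in the cortex (3.66 to 10.4%, n = 66) and 5.19 ± 1.21% in the hippocampus (3.39 to 8.31%, n = 64). In the cortex, group means ran from 4.19 ± 0.237% in SS + minocycline (n = 4) to 5.88 ± 1.29% in AA + RSD (n = 3), and single mice had a within-group SD of 1.38 percentage points. Without mouse 9674 (7.15% in the library labelled cortex, 4.54% in that labelled hippocampus) AA + RSD averaged 5.25% in cortex, against 5.23% in hippocampus (n = 2 each), and the highest cortex mean was that of SS + RSD. AA mice had 5.28 ± 1.11% (n = 12), SS mice 4.70 ± 0.740% (n = 8), SS + RSD mice 5.74 ± 1.09% (n = 6), AA + RSD + minocycline mice 5.34 ± 1.67% (n = 18) and SS + RSD + minocycline mice 5.21 ± 1.66% (n = 14). In the hippocampus the means ran from 4.89 ± 0.626% in SS (n = 7) to 5.42 ± 1.55% in AA + RSD + minocycline (n = 18), with a within-group SD of 1.26. AA mice had 5.17 ± 1.00% (n = 11), AA + RSD mice 5.0 ± 0.835% (n = 3), SS + RSD mice 5.41 ± 1.23% (n = 6), SS + RSD + minocycline mice 5.19 ± 1.25% (n = 14) and SS + minocycline mice 4.89 ± 1.35% (n = 4). As a sum over the members, the share was not tested, and most groups of each tissue overlapped. In the cortex the SS + minocycline libraries (3.85 to 4.37%) all lay below the AA + RSD libraries (4.57 to 7.15%), groups of 4 and 3 mice. In bulk tissue, fewer mitochondria-rich cells and less mitochondrial RNA per cell cannot be told apart.

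Within mice, the cortex share exceeded the hippocampus share in 35 of 64 mice, by 0.0266 ± 1.39 percentage points on average (34 of 63 without mouse 9674). It was the higher one in 6 of 6 SS + RSD mice, all of series A, and in 2 of 7 SS mice. Of the SS mice of series A, 5349 had 4.93% in cortex and 5.29% in hippocampus, and 5353 had 6.26 and 5.90%. The cortex share was the higher one in 7 of 11 AA, 2 of 3 AA + RSD and 9 of 18 AA + RSD + minocycline mice. The same held in 7 of 14 SS + RSD + minocycline and 1 of 4 SS + minocycline mice. The highest share of all belonged to the cortex of the AA + RSD + minocycline mouse 9851 (10.4%), whose hippocampus was at 4.36%. Cortex libraries of series A averaged 5.82 ± 1.11% (n = 15), of B 5.17 ± 1.45% (n = 40) and of C 4.45 ± 0.932% (n = 11), and hippocampus libraries 5.33 ± 0.864%, 5.24 ± 1.27% and 4.83 ± 1.39% (n = 14, 39 and 11). Within series A the cortex means were 5.59% in 2 SS and 5.74% in 6 SS + RSD mice, and 6.01% in 4 AA and 5.88% in 3 AA + RSD mice. The cortex library of mouse 5801, 1 of the 5 with low cortex markers, had the second highest share (9.52%), and the others of the 5 lay at 5.30 to 6.85%. The part of the markers in the share was not tested.

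**Figure D3:**
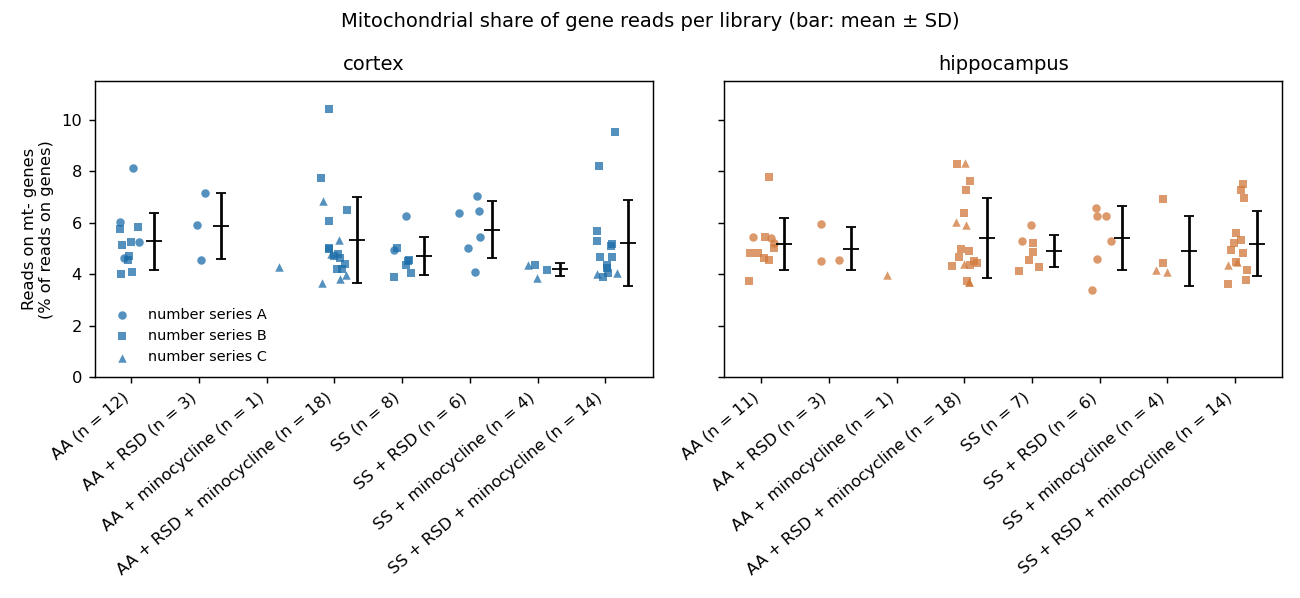
Reads on mitochondrial genes as a percentage of reads on genes, 1 point per library, by group in the cortex (left) and hippocampus (right), with bars for the mean ± SD. Circles, squares and triangles mark number series A, B and C. Most groups overlap, but SS + minocycline and AA + RSD do not in the cortex.

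SS mice were compared with AA mice to ask whether sickle cell disease alone moves mitochondrial RNA. With edgeR's quasi-likelihood test at a Benjamini-Hochberg adjusted p under 0.05, none of 25 genes tested was called in the cortex (0.214% of all genes tested were called) and none of 27 in the hippocampus (0.159%). At an unadjusted p under 0.05 there were 3 and 2, beside 1501 of 22926 and 862 of 23215 genes, and DESeq2 called 0 mitochondrial genes in each. The smallest p belonged to mt-Nd4l in the cortex (log2 fold change -1.98, SE 0.87, adjusted p 0.723), where AA libraries ranged from 0.851 to 37.4 CPM with a median of 2.07 and SS libraries from 1.54 to 2.22 with a median of 1.78. In the hippocampus it belonged to the methionine tRNA mt-Tm (-0.73, SE 0.32, adjusted p 1.00). mt-Co1 had 19477 ± 4368 CPM in cortex AA and 17397 ± 3551 in cortex SS libraries, and 18405 ± 3691 and 17031 ± 2538 in the hippocampus. The median log2 fold change of the 7 mRNAs outside the copied stretch was -0.24 in the cortex and -0.10 in the hippocampus, beside 0.00 and 0.01 over all genes.

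Among stressed mice, SS + RSD against AA + RSD gave 0 of 25 genes in the cortex (0.493% of all genes) and 0 of 27 in the hippocampus (0.780%), with 1 and 0 at an unadjusted p under 0.05 and 0 by DESeq2. Of all genes, 1111 and 2089 had an unadjusted p under 0.05, and 676 and 1545 in the interaction given below. The leading genes were the isoleucine tRNA mt-Ti in the cortex (log2 fold change -2.13, SE 1.07, adjusted p 1.00) and mt-Nd6 in the hippocampus (0.74, SE 0.53, adjusted p 0.868). The interaction of genotype and RSD gave 0 of 25 (0.236%) and 0 of 27 (0.0474%), with 1 and 0 at an unadjusted p under 0.05 and 0 by DESeq2, led by the glutamate tRNA mt-Te in the cortex (1.68, SE 0.74, adjusted p 1.00) and the leucine tRNA mt-Tl1 in the hippocampus (4.67, SE 2.57, adjusted p 0.823).

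Among mice with RSD and minocycline, SS against AA gave 0 of 25 genes in the cortex (0.624% of all genes), with 0 by DESeq2. At an unadjusted p under 0.05 there were 3, beside 1893 of all genes. The leading gene was mt-Ts1, a serine tRNA inside the copied stretch (2.40, SE 0.83, adjusted p 0.278). In the hippocampus 1 of 27 was called (2.74%), the cysteine tRNA mt-Tc, higher in SS (2.92, SE 0.78, adjusted p 0.0249). Its reads were 35 in the library of mouse 9812, 1 each in those of mice 5883 and 7078 and 0 in the other SS + RSD + minocycline libraries, and 1 each in 2 of 18 AA + RSD + minocycline libraries. The value therefore rests on mouse 9812, whose hippocampus library also had the highest share of reads outside genes (24%) and the highest mt-Nd6 level (404 CPM) of all libraries, and without it no gene was called.

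RSD was compared with no RSD in each genotype. In AA mice no mitochondrial gene was called, of 25 tested in the cortex (0.853% of all genes) and of 25 in the hippocampus (1.19%). None had an unadjusted p under 0.05, beside 3164 and 3153 of all genes, and DESeq2 called 0 mitochondrial genes. mt-Co3 led in the cortex (log2 fold change 1.53, SE 0.91, adjusted p 0.443), with 354, 19.3 and 40.6 CPM in the 3 AA + RSD mice. The high value was that of mouse 9643, a library with 28.3% unmapped reads, without which the fold change was -0.67. mt-Nd6 led in the hippocampus (-0.72, SE 0.36, adjusted p 0.345), with 42.1, 28.7 and 41.6 CPM in AA + RSD. In the cortex all 5 choroid plexus markers and 4 of 5 hippocampal markers were called higher in AA + RSD, with summed choroid plexus levels of 5.69 CPM in mouse 9643, 5.64 in 9646 and 270 in 9674, and in the hippocampus 2 of 5 cortex markers. Without mouse 9674, whose libraries go against their tissue labels, the fold changes were 1.96 for mt-Co3 and -0.83 for mt-Nd6, and no mitochondrial gene was called.

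In SS mice, RSD against no RSD gave 1 of 23 mitochondrial genes in the cortex (2.57% of all genes) and 0 of 24 in the hippocampus (3.11%). The called gene was mt-Nd4l, higher with RSD (log2 fold change 3.23, SE 0.79, adjusted p 0.0405). Its levels in the 6 SS + RSD mice were 0.723 (mouse 5354), 42.4 (5391), 1.41 (5400), 2.05 (9615), 1.89 (9616) and 47.9 CPM (9621), against 1.54 to 2.22 CPM with a median of 1.78 in 8 SS mice. The 2 high values were the libraries with 25.4 and 24.1% unmapped reads, the second also 1 of the 5 with low cortex markers (122 CPM), while 2 of the other 4 lay below and 2 within the range of SS mice. mt-Atp8, with 58.6 and 61.1 CPM in the same 2 libraries and 0.145 to 0.306 in the other 4, missed the threshold (4.71, SE 1.34, adjusted p 0.0505). With the libraries over 22% unmapped left out, the mt-Nd4l log2 fold change was -0.19 and no gene was called. The call was also lost without any 1 of mice 5354, 5391, 9615, 9616 and 9621, and within number series A.

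Outside the copied stretch, all 7 mRNAs and both rRNAs had fold changes above 0 in the cortex of SS + RSD mice, all of series A, against SS mice, of which 6 of 8 are of series B. The medians were 0.39 and 0.53 beside 0.08 over all genes, and within series A, with 2 SS mice, 0.12 and 0.02. Of these 9 genes 4 had an unadjusted p under 0.05, beside 5508 of all 19906 genes tested, and none was called. mt-Co1 had 21172 ± 4593 CPM (14174 to 26228, n = 6) against 17397 ± 3551 in SS mice (13813 to 25036, n = 8). The hippocampus gave medians of 0.20 and 0.30 beside 0.06 over all genes, and of 0.04 and -0.09 within series A. No mitochondrial gene had an unadjusted p under 0.05 there, beside 4050 of all genes, and DESeq2 called 0 mitochondrial genes. mt-Co1 had the smallest p (0.33, SE 0.18, adjusted p 0.328).

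Minocycline in stressed mice was examined as RSD + minocycline against RSD. In AA mice 0 of 25 genes were called in the cortex (3.60% of all genes) and 0 of 25 in the hippocampus (2.67%), with 0 and 1 at an unadjusted p under 0.05 and 0 by DESeq2. Of all genes, 5325 and 4178 had an unadjusted p under 0.05. mt-Rnr2 led in the cortex (log2 fold change -0.52, SE 0.27, adjusted p 0.239) and mt-Nd6 in the hippocampus (0.87, SE 0.35, adjusted p 0.162). mt-Rnr2 had 4962, 3699 and 7005 CPM in the 3 AA + RSD cortex libraries, the last that of mouse 9674, and a median of 3155 (2174 to 7714) in 18 AA + RSD + minocycline libraries. Without mouse 9674 its fold change was -0.23. With number series as a term, where AA + RSD mice are all of series A and the treated mice of B and C, 7 genes were called in the cortex and 6 in the hippocampus, all lower with minocycline and all inside the copied stretch, among them mt-Atp8 (-9.15, SE 2.22, adjusted p 0.0217 and -11.17, SE 2.75, adjusted p 0.0361), while mt-Rnr2 was at 0.01. The share of all genes called with that term is not given here. The 6 copied mRNA genes summed to 1115 CPM in the cortex and 1133 in the hippocampus of mouse 9643, with 28.3 and 29.7% unmapped reads. They summed to 60.9 and 56.9 CPM in mouse 9646 and to 116 and 46.3 in mouse 9674. Minocycline, series and the unmapped share cannot be told apart in these values, and none of them was tested as a cause. All 5 choroid plexus and 4 of 5 hippocampal markers were called lower in this cortex comparison and 3 of 5 cortex markers in that of the hippocampus, which share the AA + RSD mice, and their part in these values was not tested.

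In SS mice 2 of 23 genes were called in the cortex (8.85% of all genes), both lower with minocycline and both inside the copied stretch. mt-Nd4l (-2.91, SE 0.64, adjusted p 0.0106) ranged from 0.349 to 9.60 CPM with a median of 1.93 in 14 SS + RSD + minocycline mice, against the 6 SS + RSD values given above. mt-Atp8 (-3.22, SE 1.01, adjusted p 0.0423) had 22.7 CPM in mouse 7076 and at most 1.69 in the other 13. Among libraries under 22% unmapped the fold changes turned to 0.12 and 1.71 and neither was called, while the tRNA mt-Ti was (3.87, adjusted p 0.0382). The mt-Atp8 call was also lost without any 1 of mice 5391, 9615, 9616, 9621 and 7078. In the hippocampus 0 of 24 were called (5.96% of all genes). An unadjusted p under 0.05 was found for 6 of the 24, beside 5539 of all 20701 genes tested. DESeq2 called 2 of them, beside 2298 of all genes. mt-Co3 led (-2.09, SE 0.71, adjusted p 0.0659), with 407 and 352 CPM in mice 5391 and 9621 and 10.7 to 29.4 in the other 4 SS + RSD mice, and a fold change of 0.00 under 22% unmapped. For the 7 mRNAs outside the copied stretch the median was -0.25 in the cortex and 0.07 in the hippocampus, beside -0.05 and -0.03 over all genes.

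Minocycline without stress was compared in SS mice only, with 4 treated mice. No mitochondrial gene was called, of 23 in the cortex (0% of all genes) and of 24 in the hippocampus (0%), and DESeq2 called 0 mitochondrial genes. Of all genes, edgeR and DESeq2 called 0 in either tissue, and edgeR gave 1406 and 449 an unadjusted p under 0.05. Of the mitochondrial genes 7 and 0 had an unadjusted p under 0.05. mt-Atp8 led in the cortex (log2 fold change 4.84, SE 1.40, adjusted p 0.666), with 39.5 CPM in mouse 7108, 52.7 in 7121, 0.0958 in 9888 and 0.0386 in 9889 against 0.218 to 1.59 in SS mice. The treated group thus held values above and values below every control. Its first 2 mice belong to series C and its last 2 to series B, and within series B, with 2 treated and 6 SS mice, the fold change was -3.71. There 9 genes were called in the cortex, mt-Rnr1 (0.58, SE 0.11, adjusted p 0.00235), mt-Rnr2 (0.63, SE 0.10, adjusted p 0.00107), mt-Co2 and mt-Nd4 higher and mt-Tw (-3.17, SE 0.47, adjusted p 7.3e-04), mt-Atp8, mt-Ti, mt-Nd4l and mt-Nd5 lower. In the hippocampus of series B 7 were called, mt-Nd4 (0.76, SE 0.11, adjusted p 0.00188), mt-Rnr1, mt-Rnr2, mt-Nd1, mt-Cytb and mt-Tt higher and mt-Ti lower. The 0% above belongs to the fits of all SS groups. The share of all genes called within series B is not given here, so these counts cannot be called particular to mitochondrial genes. They rest on treated mice 9888 and 9889, and the hippocampus of 9889 stood apart in mitochondrial share (6.91%, others of its group 4.09 to 4.42%). In the fit of all SS groups mt-Ti led in the hippocampus (-1.31, SE 1.02, adjusted p 0.981).

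**Figure D4:**
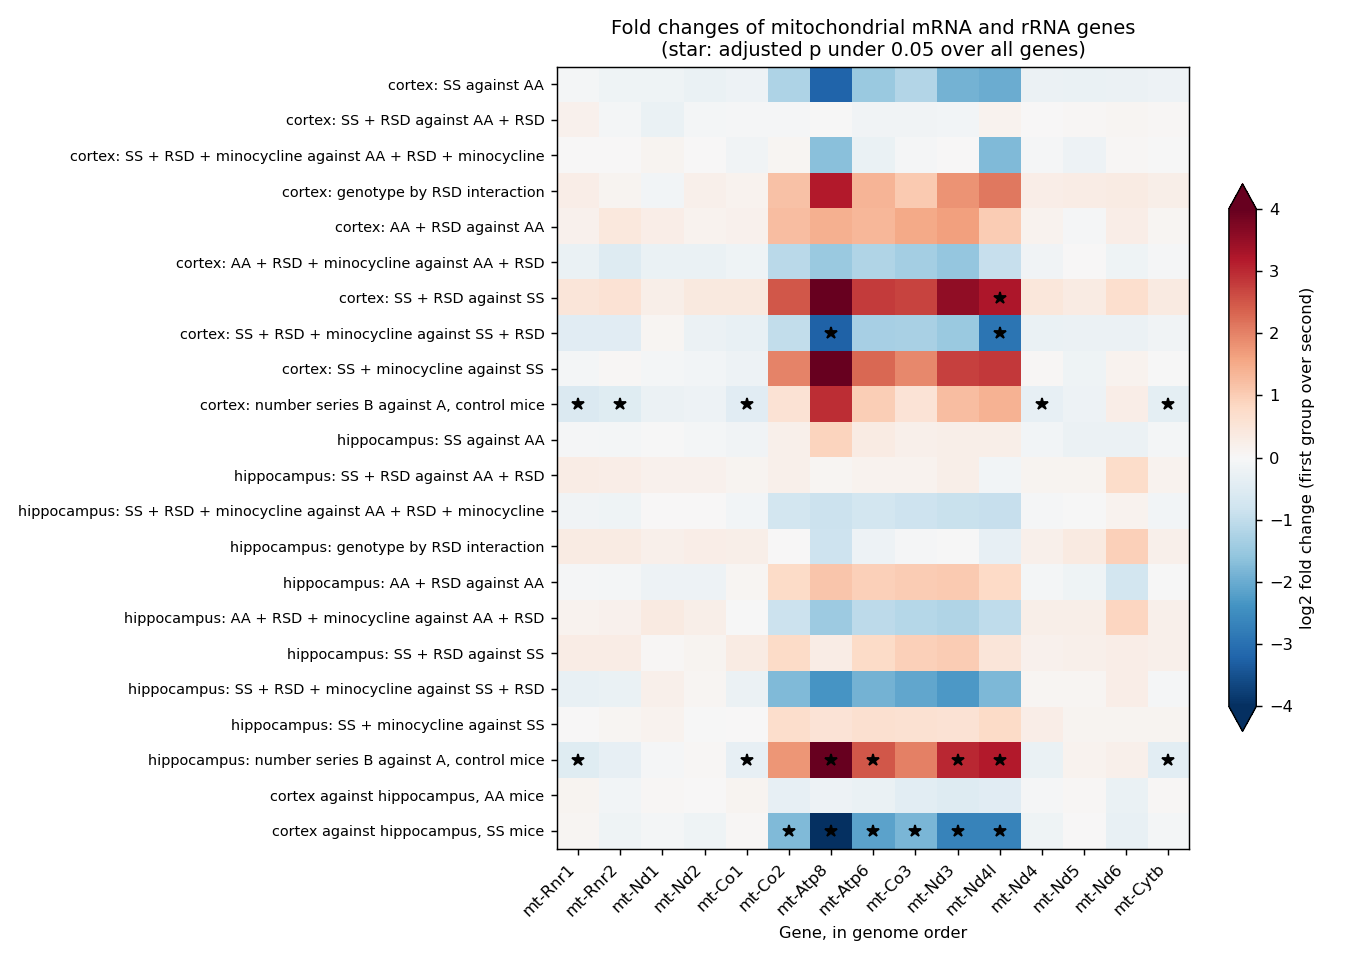
Log2 fold change of each mitochondrial mRNA and rRNA gene (columns, in genome order) in each comparison (rows), in colour, with a star where the adjusted p over all genes is under 0.05. The strong colours and most stars fall on the 6 genes of the copied stretch, and the largest changes outside it between groups of one tissue stay uncalled.

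Between the tissues, the genes called in AA mice were tRNA genes, and the share called was below that of all genes. In AA mice 4 of 23 genes were called between cortex and hippocampus (37.1% of all genes tested), all tRNAs and all lower in the cortex, and in SS mice 8 of 23 (29.4%), all lower in the cortex and 2 of them tRNAs. The sequences of the 4 tRNAs called in AA mice are shown, with the anticodon in capitals, because 2 of them were also called in SS mice.
mt-Ta (alanine), chrM:5018-5086, minus strand: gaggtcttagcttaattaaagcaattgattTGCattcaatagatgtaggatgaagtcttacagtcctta
mt-Tp (proline), chrM:15356-15422, minus strand: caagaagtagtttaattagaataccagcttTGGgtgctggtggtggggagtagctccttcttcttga
mt-Tq (glutamine), chrM:3772-3842, minus strand: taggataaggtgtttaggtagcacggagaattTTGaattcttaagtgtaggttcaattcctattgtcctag
mt-Tt (threonine), chrM:15289-15355, plus strand: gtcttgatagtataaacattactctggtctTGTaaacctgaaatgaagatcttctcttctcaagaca

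mt-Ta had 0.190 to 0.402 CPM (median 0.226) in the cortex and 0.359 to 1.99 (median 0.563) in the hippocampus of 11 AA mice, and was lower in the cortex of all 11 (log2 fold change -1.30, SE 0.24, adjusted p 1.0e-04). mt-Tt had 1.08 to 2.34 CPM against 1.55 to 4.33 and was also lower in 11 of 11 (-0.69, SE 0.19, adjusted p 0.00446). mt-Tp had 1.14 to 4.16 against 3.02 to 7.13 and was lower in 10 of 11 (-0.64, SE 0.19, adjusted p 0.00920). mt-Tq had 0.641 to 1.40 against 0.719 to 2.53 and was lower in 9 of 11 (-0.71, SE 0.22, adjusted p 0.0112). These are small numbers of reads, with 3 to 16 on mt-Ta in the control cortex libraries. Every read is longer than the tRNA it was counted on, so the counts cannot be read as levels of the tRNAs themselves. mt-Ta, mt-Tp and mt-Tq lie on the minus strand. Since the strand setting of the counting is not given, their reads cannot be told apart from antisense RNA of the plus strand. The 4 calls held with the mouse as a block, and 3 of them, without mt-Tq, among libraries under 22% unmapped.

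In SS mice mt-Tp (-0.80, SE 0.25, adjusted p 0.0235; lower in the cortex of 7 of 7 mice) and mt-Ta (-0.91, SE 0.29, adjusted p 0.0247; 5 of 7) were called beside the 6 copied genes, and are named here because the same tRNAs were called in AA mice. Of the latter, mt-Atp8 had the largest difference (-4.32, SE 1.19, adjusted p 0.00981), followed by mt-Nd3 (-2.68, SE 0.70, adjusted p 0.00719), mt-Nd4l (-2.67, SE 0.79, adjusted p 0.0153) and mt-Atp6 (-2.13, SE 0.65, adjusted p 0.0194). Hippocampal mt-Atp8 was 54.6 and 60.7 CPM in mice 9822 and 9848 and 0.116 to 1.45 in the other 5, while all 7 cortex values lay between 0.218 and 1.59. Mice 9822 and 9848 are those over 22% unmapped in the hippocampus only. Under 22% unmapped the mt-Atp8, mt-Nd4l and mt-Atp6 differences turned to 0.25, 0.22 and 0.12, and 3 genes, mt-Nd6, mt-Ta and mt-Tp, were called. With the mouse as a block, 7 genes were called (mt-Tm, higher in the cortex, and mt-Ta, mt-Atp8, mt-Nd4, mt-Nd6, mt-Tt and mt-Tp, lower), of which mt-Atp8 was the one inside the stretch (-2.76, SE 0.99, adjusted p 0.0433), while mt-Nd3 (adjusted p 0.0588), mt-Nd4l (0.171) and mt-Atp6 (0.240) were not.

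The 7 mRNAs outside the stretch and both rRNAs showed no called difference between tissues without the block. Their median log2 differences, cortex against hippocampus, were 0.04 and 0.01 in AA and -0.07 and -0.05 in SS mice, beside -0.02 over all genes. mt-Nd4, which reaches into the stretch, was lower in the cortex of 7 of 7 SS mice and 7 of 11 AA mice. In AA control mice tissue markers separated the tissues, with 5 cortex markers summing to 226 to 302 CPM in cortex and 53.1 to 115 CPM in hippocampus libraries, and 5 hippocampal markers to 23.9 to 35 against 196 to 559 CPM. All 5 choroid plexus markers were lower in the cortex of AA mice (2 of 5 in SS mice), as were 3 of 5 astrocyte markers (4 of 5), while the astrocyte marker Aldh1l1 and 3 of 6 neuronal markers were higher in each genotype. Their part in the tRNA values was not tested.

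Control mice without RSD or minocycline came from series A and B, which allowed the series to be compared with genotype as a term. In the cortex 6 of 22 mitochondrial genes were called, all lower in series B (43.2% of all genes tested were called). mt-Rnr1 had 3015 to 4892 CPM (median 3916) in 6 series A and 2099 to 4309 (median 2744) in 14 series B libraries (-0.57, SE 0.13, adjusted p 0.00142). mt-Rnr2 (-0.50, SE 0.12, adjusted p 0.00226), mt-Co1 (-0.44, SE 0.11, adjusted p 0.00414) and mt-Tt (-0.60, SE 0.22, adjusted p 0.0316) were also lower, as were mt-Cytb and mt-Nd4. mt-Co1 ranged from 16430 to 29899 CPM in series A and from 13813 to 21956 in series B, so the ranges of both genes overlapped.

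In the hippocampus 10 of 23 were called (45% of all genes), 4 lower and 6 higher in series B. Lower were mt-Rnr1, mt-Co1, mt-Cytb and mt-Tt. mt-Co1 had 18822 to 21327 CPM in 5 series A and 12956 to 27031 in 13 series B libraries. Higher were mt-Atp8 (6.67, SE 1.81, adjusted p 0.00619), mt-Ti (4.05, SE 0.75, adjusted p 4.4e-04), mt-Nd4l (3.16, SE 1.09, adjusted p 0.0249), mt-Nd3 (3.01, SE 0.96, adjusted p 0.0162), mt-Atp6 and the tryptophan tRNA mt-Tw. mt-Atp8 had 0.0995 to 0.246 CPM in series A and 0.254 to 60.7 (median 1.41) in series B, without overlap, and mt-Ti 0 to 0.204 against 0.159 to 5.65. Of these libraries, 0 of 5 in series A and 4 of 13 in series B were over 22% unmapped. Among libraries under 22% mt-Atp8, mt-Nd3, mt-Nd4l, mt-Ti and mt-Tw were still called higher and mt-Tt lower, with log2 fold changes of 2.94, 0.94, 0.52, 4.40, 1.13 and -0.70. Reads outside genes made up 3.79 to 5.67% in cortex libraries of series A and 4.68 to 11% in series B, and 4.25 to 5.73% against 4.47 to 10.7% in the hippocampus. With that share as a term no mitochondrial gene was called in the cortex.

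The nuclear-encoded subunits of complexes I, III, IV and V, which assemble with the mitochondrial mRNA products, moved with the series far more evenly. Of 73 tested (74 listed), 72 were called lower in series B in the cortex, with a median log2 fold change of -0.51 beside 0.01 over all genes, and 73 of 73 in the hippocampus, with -0.62 beside 0.00. Examples are the complex I subunits Ndufa13 (-0.67, SE 0.13, adjusted p 5.3e-04 in the cortex) and Ndufs6 (-0.88, SE 0.13, adjusted p 1.3e-04 in the hippocampus), and the complex IV subunit Cox7a2 (-0.69, SE 0.13, adjusted p 5.7e-04 in the cortex).

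**Figure D5:**
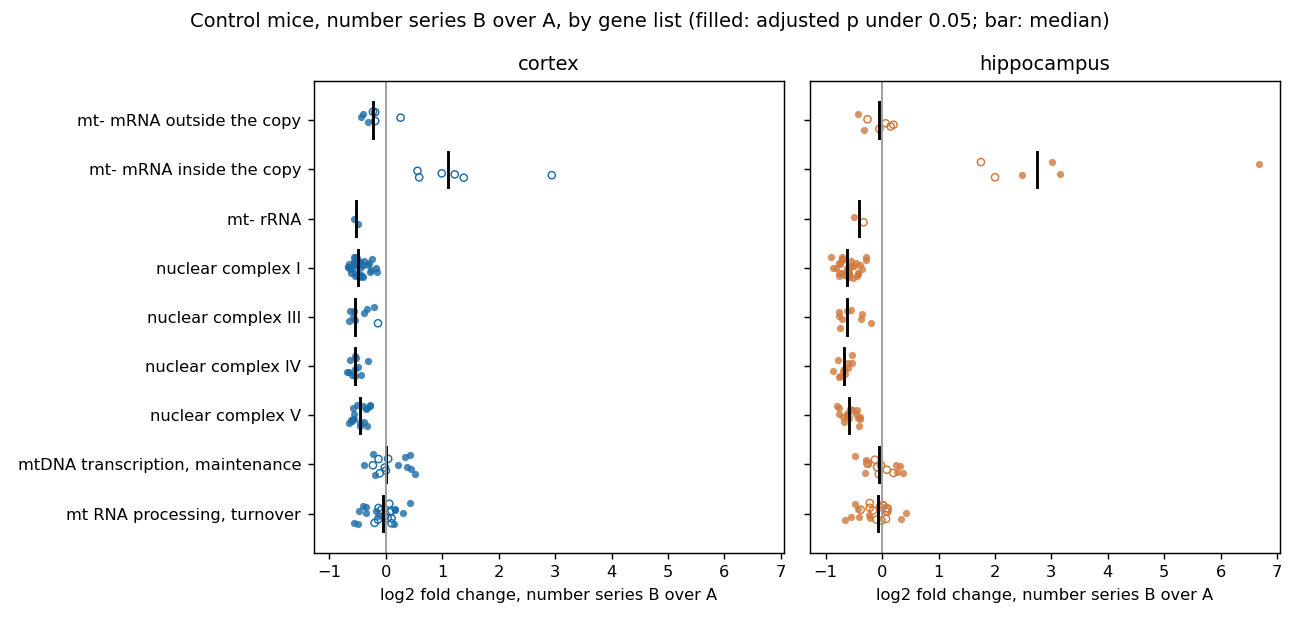
Log2 fold change of control mice, number series B over A, for the genes of each list in the cortex (left) and hippocampus (right), with 1 point per gene, filled where the adjusted p is under 0.05, and a bar at the list's median. Nuclear subunits of complexes I, III, IV and V lie to the left of 0, as do the mitochondrial rRNAs, while the 6 copied mRNAs lie to its right.

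Lists of other nuclear genes of the pathway held calls both ways between series, beside 43.2% of all genes called in the cortex and 45% in the hippocampus, so their counts say little about the lists. Of 15 genes for mitochondrial DNA transcription and maintenance, 6 were higher and 3 lower in cortex of series B, and 4 and 4 in hippocampus, with the DNA polymerase subunit Polg higher (0.51 and 0.37) and the nuclease Mgme1 lower (-0.39 and -0.49) in each. Of 24 genes for mitochondrial RNA processing and turnover, 5 were higher and 8 lower in cortex, against 2 and 7 in hippocampus. Pnpt1, a mitochondrial polynucleotide phosphorylase, was higher (0.43 in each) and Hsd17b10, a subunit of the tRNA-processing enzyme, lower (-0.57 and -0.66). Of 7 regulators of mitochondrial biogenesis 3 were higher in the cortex and 2 in the hippocampus, led by the coactivator Ppargc1b (0.68 and 0.99). Nuclear-retained noncoding RNAs, listed as a measure of unspliced or nuclear RNA, were higher in series B for 7 of 7 cortex and 6 of 7 hippocampus genes, with Meg3 at 1.96 and 2.04.

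Between groups, the same pathway lists held few calls. Of the 73 nuclear subunits, 0 were called in 17 of the 18 comparisons between groups of one tissue and 1 in the other, Uqcrc2, a complex III core protein, lower in cortex SS + RSD + minocycline against SS + RSD (-0.37, SE 0.12, adjusted p 0.0468). Their median log2 fold change in that comparison was -0.31 beside -0.05 over all genes, and in cortex SS + RSD against SS 0.46 beside 0.08. In the same minocycline comparison Pnpt1 (0.44, SE 0.13, adjusted p 0.0349) and the transcription factor Mterf3 (0.29, SE 0.08, adjusted p 0.0242) were higher in the cortex, and Pnpt1 (0.46, SE 0.12, adjusted p 0.0310) in the hippocampus. Nuclear-retained RNAs were called lower in SS + RSD against SS for 4 of 7 genes in the cortex and 5 of 7 in the hippocampus (2.57 and 3.11% of all genes called), among them Miat (-2.13 and -2.11). They were higher with minocycline among SS + RSD mice for 5 and 6 of 7 (8.85 and 5.96% of all genes), among them Meg3 (1.94 and 2.08). These contrasts share the SS + RSD mice, all of series A, and the part of the series in them was not tested.

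Between cortex and hippocampus, 0 of 73 nuclear subunits were called in either genotype, beside 37.1% of all genes tested in AA and 29.4% in SS mice. The subunits' medians were 0.02 and 0.03 beside -0.02 over all genes. The mitochondrial rRNA methyltransferase Mrm1 was higher in the cortex (0.66, SE 0.08, adjusted p 2.9e-07 in AA and 0.75, SE 0.07, adjusted p 1.8e-07 in SS mice) and the mitochondrial topoisomerase Top1mt lower (-0.57, SE 0.07, adjusted p 4.5e-07 and -0.63, SE 0.07, adjusted p 2.6e-06). The coactivator Ppargc1a was higher (0.34 and 0.36) and the transcription factor subunit Gabpa lower (-0.33 and -0.43) in both genotypes.

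Erythroid marker genes rose in SS mice in both tissues, 4 of 4 tested in SS against AA (median log2 fold change 3.13 in the cortex and 3.34 in the hippocampus), and no mitochondrial gene was called beside them. In cortex SS + RSD + minocycline against SS + RSD, 2 of 4 erythroid, 2 of 5 astrocyte, 1 of 5 microglial and 1 of 4 endothelial markers were called lower (8.85% of all genes), and in the hippocampus (5.96%) 1 of 5 astrocyte, microglial and choroid plexus markers each and 1 of 4 endothelial markers. Between series, 4 of 5 microglial and 3 of 5 astrocyte markers were lower in series B in each tissue, as were 2 of 4 endothelial markers in each, 1 of 4 oligodendrocyte markers in the cortex and 3 of 4 in the hippocampus, beside 43.2 and 45% of all genes called in either direction. Every marker of neurons, astrocytes, oligodendrocytes, microglia and endothelial cells was detected in every library, and the part of these cells in the mitochondrial values was not tested.

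The level of mt-Co1 was shared between the tissues of a mouse. Over 64 mice, log2 CPM in the cortex and hippocampus had a Pearson r of 0.57 and a Spearman rho of 0.66 (permutation test with 100000 resamples, two-sided, p = 1e-05 for each, the smallest the permutations can give, and 3.0e-05 adjusted over 3 relations). Within series A, B and C r was 0.72, 0.47 and 0.54 (n = 14, 39 and 11, permutation p 0.00394, 0.00254 and 0.0950) and rho 0.55, 0.49 and 0.64 (permutation p 0.0431, 0.00185 and 0.0404), and r was 0.59 without the 2 mice farthest from the cortex median. Against the share of reads outside genes, r was -0.37 and rho -0.40 in the cortex (n = 66, permutation p 0.00219 and 1.0e-03, adjusted the same) and r -0.42 and rho -0.47 in the hippocampus (n = 64, permutation p 2.3e-04 and 1.0e-04, adjusted 3.4e-04 and 1.5e-04). Leaving out, in each relation, the 2 mice farthest from the median of its own x axis gave an r of -0.54 in each. Within series the cortex r was -0.74 in A (permutation p 0.00118), -0.27 in B (0.0858) and -0.22 in C (0.530), with rho -0.61, -0.24 and -0.12 (permutation p 0.0191, 0.140 and 0.736), so the cortex relation passed within series A only. The hippocampus r was -0.45, -0.38 and -0.67 (permutation p 0.108, 0.0160 and 0.0299) and rho -0.57, -0.30 and -0.02 (permutation p 0.0351, 0.0621 and 0.968), so within no series did both measures pass there.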

How the data were processed

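RNA of 134 cortex and hippocampus samples was sequenced by the authors as stranded poly(A) libraries with single reads of 85 bases, aligned to GRCm39 with STAR and counted per GENCODE gene. The STAR version, annotation release and strand setting are not given in the sources used here. The deposited counts are raw, with uniquely placed reads only, in 2 tables of 55416 genes. The 4 summary lines (unmapped, multiply placed, outside genes and ambiguous reads; 3.07 to 41.9% unmapped, 2.44 to 9.51% multiply placed, 3.68 to 24% outside genes) were kept out of library sizes and tests. The AA + RSD + minocycline mouse 9877 and the SS + minocycline mouse 9887 had identical counts in each tissue and were left out, giving 130 libraries, and 3 table columns not tied to a sample with a group were not used.

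Each group comparison was tested over all genes with edgeR 4.0.16 (quasi-likelihood, TMM factors, filterByExpr with a minimum count of 10 and a total of 15; R 4.3.3) and Benjamini-Hochberg adjustment over all genes tested, with 0.05 as threshold, in models per tissue and, for treatments, per genotype with all groups. Mice, numbered in the labels, were the replicates, and cortex and hippocampus of a mouse were paired by that number, so the tissue comparison was also fitted with the mouse as a block. CPM and shares use reads on all genes, without TMM factors. Nuclear copies were found by aligning chromosome M to GRCm39 at an identity of 85% or more. The 85-base windows of chromosome M were then compared with the copies inside these alignments. Gene positions came from the GENCODE annotation. Alternatives were RLE scaling, plain library sizes, DESeq2 1.42.0, no filter, added terms and libraries left out. Members named are the called genes of largest fold change, at most 4 per comparison, or the one of smallest p where none was called, and of other lists at most 2 called genes per direction. The fits were tested on simulated data. The members, lists and tests were chosen with earlier results of these data known. Intervals from counting were not used. For the mitochondrial share, with 578686 or more mitochondrial reads per library, the spread between mice sets the error. This does not hold for members with few reads, such as mt-Ta with 3 to 16 in control cortex libraries, where counting adds to the error.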

Additional observations from a re-analysis of the deposited data

Results flagged for a closer look

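In 96 groups of 4 to 10 libraries tested for a library that stands apart by Dixon's criterion, 7 values passed; chance alone flags about 1 in 20 groups. In cortex SS mice, mouse 5353 had the highest mt-Co1 (25036 CPM, others 13813 to 18546), mt-Rnr2 (5384 CPM, others 2806 to 3941) and mt-Co3 (35.4 CPM, others 15.6 to 21.2). Mouse 5353 belongs to number series A, with 1 other SS mouse of that series among the 8.

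The minus-strand mRNA mt-Nd6 stood apart in both tissues of the SS + RSD mouse 9621, with 167 CPM in the cortex (others 28.9 to 57) and 169 CPM in the hippocampus (others 35 to 49.7). In the hippocampus of SS + minocycline mice, mouse 9889 had a mitochondrial share of 6.91% (others 4.09 to 4.42%) and 23396 CPM of mt-Co1 (others 13301 to 14827). The cause of none of these values was tested.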

How the results depend on the processing

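Of the summary values, 370 alternatives kept their direction and their side of the threshold or stayed within the spread, and 71 did not; of single genes, 451 kept both and 67 did not. With the mouse as a block, the tissue comparison kept 4 calls in AA mice (mt-Ta -1.21, mt-Tt -0.72, mt-Tq -0.63, mt-Tp -0.61) and gave 7 in place of 8 in SS mice, where mt-Nd3 (-1.54), mt-Nd4l (-1.27) and mt-Atp6 (-0.88) were lost and mt-Atp8 (-2.76) was kept; no other comparison has pairs. The alternatives on unmapped reads, on mouse 9812, on series C alone, without the 5 mice together, on the shares without mouse 9674 and on levels per placeable window were chosen after seeing the data. The cause of the shifts below was not tested. Except where stated, the share of all genes called in the same fit is not given here. Those shifts in the number of calls therefore cannot be called particular to mitochondrial genes.

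In cortex SS + RSD against SS, the 1 call became 3 with RLE factors, with reads on all genes and with reads on nuclear genes, 6 with DESeq2, 9 with only the groups compared, and 0 without the filter, with number series, reads outside genes or unmapped reads as a term, under 22% unmapped (mt-Nd4l -0.19) and in series A alone. Leaving out 1 mouse gave 0 to 3. Calls over all genes rose too, from 56 higher and 455 lower to 75 and 787 with RLE factors. They were 85 and 1429 with reads on all genes, 90 and 1379 with reads on nuclear genes, and 2097 of 19906 genes in all with DESeq2. In cortex SS + RSD + minocycline against SS + RSD, the 2 calls became 1 without the filter, with unmapped reads as a term, under 22% unmapped (mt-Atp8 1.71, mt-Nd4l 0.12), without mice 5844, 5853, 7078, 9631 and 9674 and with only the groups compared, and 0 with series or reads outside genes as a term; leaving out 1 mouse gave 1 to 2. In cortex SS + minocycline against SS, 0 became 1 under 22% unmapped and 9 in series B alone, and mt-Atp8 turned to -0.20 with series as a term and to -3.71 in series B. In hippocampus SS + minocycline against SS, 0 became 7 in series B alone. In AA + RSD + minocycline against AA + RSD, series as a term gave 7 calls in the cortex (mt-Rnr2 0.01) and 6 in the hippocampus. Without mouse 9643, AA + RSD against AA gave mt-Co3 -0.67 in the cortex (2.05 without mouse 9646), and the hippocampus comparisons of AA + RSD with AA and with AA + RSD + minocycline gave 0 to 1 calls. In hippocampus SS + RSD + minocycline against AA + RSD + minocycline, the 1 call became 0 with DESeq2 (mt-Tc -0.10), with series, reads outside genes or unmapped reads as a term, under 22% unmapped, without mouse 9812, with only the groups compared, and in series B or C alone. DESeq2 gave mt-Ts1 -0.25 in that cortex comparison, and 2 calls, beside 2298 of all genes, in hippocampus SS + RSD + minocycline against SS + RSD, where mt-Co3 was 0.00 under 22% unmapped.

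Between series, the cortex had 0 calls with reads outside genes as a term, and the hippocampus 2 with unmapped reads as a term (mt-Nd4l -0.17), 6 under 22% unmapped and 6 to 10 with 1 mouse left out (6 without the AA mouse 9631). Between tissues of SS mice, 3 genes were called with unmapped reads as a term and 3 under 22% unmapped (mt-Atp8 0.25, mt-Nd4l 0.22, mt-Atp6 0.12). With all reads as denominator the cortex shares were 3.77% over all libraries, 3.83% in AA, 4.28% in AA + RSD, 3.53% in SS, 4.09% in SS + RSD and 2.87% in SS + minocycline, and the hippocampus shares 3.73% over all, 3.67% in AA, 3.57% in AA + RSD, 3.59% in SS, 3.90% in SS + RSD, 3.75% in SS + RSD + minocycline and 3.39% in SS + minocycline. From the 13 mRNAs alone, the share was 3.55% in cortex SS + minocycline and 4.18% in hippocampus SS. By r, the mt-Co1 relations missed the threshold within series C between tissues (r 0.54; rho 0.64 passed), within B (-0.27) and C (-0.22) for reads outside genes in the cortex, and within A (-0.45; rho -0.57 passed) in the hippocampus, where by rho B and C missed it.

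Plain library sizes moved the median of all genes in cortex SS + RSD against SS from 0.08 to -0.04 and the calls from 56 higher and 455 lower to 85 and 1429 (DESeq2 545 and 1552), and in cortex SS + RSD + minocycline against SS + RSD from -0.05 to 0.07 and from 1270 and 492 to 2210 and 147. RLE scaling and plain library sizes changed the direction of no mitochondrial gene named. The 6 copied genes had no or almost no windows without a nuclear copy, and the tRNAs had few counted reads, which limits the counts of both.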
